A study of Mus musculus with 12 samples.

Results

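Cyp2b10 and 5 genes of the Cyp2c family (Cyp2c38, Cyp2c44, Cyp2c54, Cyp2c55 and Cyp2c70) were followed across mouse liver RNA-seq libraries. They were taken by name: each is a row of the count table whose Ensembl identifier carries that symbol in the GENCODE vM1 annotation, 6 of the 51609 rows. Livers came from 4 groups of 3 mice each on a C57BL/6 background. Wild-type mice were Cre-negative littermates with floxed Rela and Stat3 (Rela fl/fl Stat3 fl/fl), and mice labelled RelaΔhepStat3Δhep carried the same floxed alleles together with Cre under the albumin promoter, which is active in hepatocytes, so that other liver cells keep both genes. In each genotype one group was untreated and the other drank 2% dextran sodium sulfate (DSS), a polysaccharide that injures the colon epithelium, for 6 days. The comparisons ask how hepatocyte Rela and Stat3 bear on the liver's response to colitis.

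Cytochrome P450 enzymes are haem proteins of the endoplasmic reticulum that insert 1 atom of oxygen into their substrates, with electrons passed on by the reductase Por. Cyp2b10 hydroxylates drugs and steroids and is the classic target of the nuclear receptor CAR, encoded by Nr1i3. Several mouse Cyp2c enzymes, Cyp2c38, Cyp2c44, Cyp2c54 and Cyp2c55 among them, oxidise arachidonic or linoleic acid, in part to epoxides that the soluble epoxide hydrolase Ephx2 turns into diols. Cyp2c70 stands apart in function: it is the mouse enzyme that hydroxylates chenodeoxycholic acid on the way to muricholic acids. P450 transcripts of the liver are known to fall during inflammation.

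In the mm9 genome Cyp2b10 (ENSMUSG00000030483) lies on the plus strand at chr7:26682639-26711643. The Cyp2c genes lie on chromosome 19: Cyp2c55 (ENSMUSG00000025002) on the plus strand at chr19:39081509-39117183, and on the minus strand Cyp2c38 (ENSMUSG00000032808) at chr19:39464046-39537565, Cyp2c54 (ENSMUSG00000067225) at chr19:40112431-40148301, Cyp2c70 (ENSMUSG00000060613) at chr19:40227843-40261823 and Cyp2c44 (ENSMUSG00000025197) at chr19:44079512-44103737. How alike the transcripts are decides whether a read can be told from that of a neighbour, and the stretch that codes for the haem-binding loop shows it. The GENCODE vM1 coding sequences are given over 60 bases, 5′ to 3′, with the 30 bases of the motif around the cysteine that holds the haem iron in capitals.
Cyp2b10: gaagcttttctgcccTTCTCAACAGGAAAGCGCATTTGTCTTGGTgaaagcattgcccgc
Cyp2c55: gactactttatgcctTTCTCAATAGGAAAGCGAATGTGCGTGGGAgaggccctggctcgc
Cyp2c38: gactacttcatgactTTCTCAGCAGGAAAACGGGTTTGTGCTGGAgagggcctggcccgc
Cyp2c44: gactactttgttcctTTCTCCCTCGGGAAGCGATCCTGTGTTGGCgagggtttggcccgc
Cyp2c54: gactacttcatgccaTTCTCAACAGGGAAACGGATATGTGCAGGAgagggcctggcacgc
Cyp2c70: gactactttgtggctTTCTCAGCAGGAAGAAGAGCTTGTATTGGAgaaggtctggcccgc
Below is the same stretch in the nearest family member, by protein identity, of the 3 genes with the closest copies, with each base that differs in capitals.
Cyp2b13, nearest to Cyp2b10: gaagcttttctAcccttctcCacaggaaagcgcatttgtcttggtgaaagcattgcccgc
Cyp2c39, nearest to Cyp2c38: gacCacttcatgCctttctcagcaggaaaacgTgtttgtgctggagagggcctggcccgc
Cyp2c50, nearest to Cyp2c54: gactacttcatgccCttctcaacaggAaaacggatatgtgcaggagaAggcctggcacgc
These differ from their partners at 2, 3 and 3 bases. The stretches of Cyp2c55, Cyp2c70 and Cyp2c44 differ from their nearest relatives (Cyp2c29, Cyp2c66 and Cyp2c65) at 11, 14 and 16 bases.

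Over the whole coding sequence Cyp2c54 shared 95.2% of bases with Cyp2c50, Cyp2c38 shared 94.2% with Cyp2c39 and Cyp2b10 shared 88.6% with Cyp2b13. The coding identity of Cyp2c55, Cyp2c70 and Cyp2c44 to the relative nearest by protein was lower, at 77.5%, 69.2% and 66.3%, and their highest coding identity to any gene of the family was 77.5% (Cyp2c29), 69.5% (Cyp2c55) and 66.5% (Cyp2c66). An exact copy in the transcripts of another gene was found for 25% of the 50-base windows of Cyp2c54, for 7.87% of those of Cyp2b10 and for 7.45% of those of Cyp2c38, and for 0 of those of the other 3 genes. With windows of 150 bases, Cyp2c54 kept a share of 3.02%, all of it with Cyp2c50, and the others had 0. A second near copy of Cyp2c54 is Cyp2c37 (95.1% of coding bases), a second one of Cyp2c38 is Cyp2c29 (89.1%), and a second one of Cyp2b10 is Cyp2b9 (87.7%). Cyp2b9, Cyp2b13, Cyp2c29, Cyp2c37, Cyp2c39 and Cyp2c50 are not analysed here, so reads of these genes that were assigned to Cyp2b10, Cyp2c38 or Cyp2c54 could not be measured, and the values of Cyp2c54 in particular carry that uncertainty. Of the 20 Cyp2b and Cyp2c genes of the annotation, 10 were analysed. Apart from the 6 genes described, Cyp2b19, Cyp2b23 and Cyp2c66 had 0 counts in the 12 libraries and Cyp2c65 reached at most 0.869 CPM, the count scaled to a fixed library size.

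**Figure D1:**
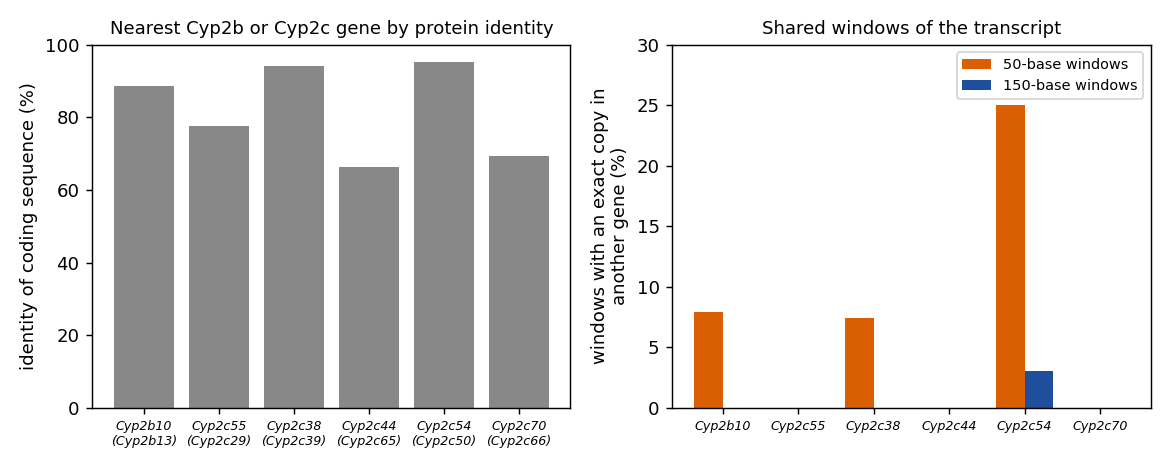
Left, identity of the coding sequence (%) between each of the 6 genes and the Cyp2b or Cyp2c relative nearest by protein identity (in brackets). Right, share of 50-base (orange) and 150-base (blue) windows of each transcript that have an exact copy in another gene's transcripts. Cyp2c54 has the highest bars, with 95.2% identity to Cyp2c50 and 25% of its 50-base windows shared.

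The 12 libraries summed to between 65879529 and 82850098 estimated counts, and values are given as CPM on library sizes scaled by the trimmed mean of M-values (TMM) method. Rela was at 41.2 to 54.5 CPM in untreated wild-type livers and at 42.8 to 51.4 CPM in untreated livers labelled RelaΔhepStat3Δhep. Stat3 was at 45.7, 138 and 87.6 CPM against 45.9, 46.7 and 49.7 CPM, and neither gene differed between genotypes past the threshold (edgeR adjusted p = 0.961 and 0.542), so whole-gene counts of whole liver did not check the genotype labels. After DSS, Stat3 was at 63.2, 330 and 307 CPM in wild-type and at 43.0, 58.0 and 74.8 CPM in RelaΔhepStat3Δhep livers (edgeR adjusted p = 0.175). Rela had a positive fitted value in that comparison, higher in RelaΔhepStat3Δhep livers, and was not called. Hepatocyte markers (5 of 6 analysed) summed to 96643 to 179339 CPM, and of the 5 gut epithelium markers analysed (of 6) Cdx1 and Cdx2 were at 0, Muc2 was at most 0.0713 CPM, Vil1 at most 1.28 CPM, and Fabp2 was at 16.3 to 99.1 CPM. Xist, expressed from the inactive X chromosome, exceeded 100 CPM in the 3 DSS-treated RelaΔhepStat3Δhep livers (903 to 1283 CPM) and in untreated wild-type replicate 3 (1143 CPM), and was at most 29.0 CPM in the other 8. The Y-linked Ddx3y was at most 0.0838 CPM in those DSS-treated livers, at 14.3 CPM in untreated wild-type replicate 3 and between 89.4 and 125 CPM in the other 8. In the comparisons with DSS-treated RelaΔhepStat3Δhep livers, sex-linked expression and the named groups cannot be told apart. A sum of 6 acute-phase genes was at 13747, 176571 and 40715 CPM in the 3 DSS-treated wild-type livers and between 9890 and 14954 CPM in the other 9. As bulk tissue, these livers do not tell fewer cells of a type from less RNA per cell.

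Compared per kilobase of exon, which puts genes of different length on one scale, the 6 genes spanned a wide range in untreated wild-type livers. Mean levels were 392 CPM per kb for Cyp2c70, 247 for Cyp2c54, 163 for Cyp2c44, 29.3 for Cyp2c38, 11.3 for Cyp2c55 and 6.83 for Cyp2b10. Neighbours in this order did not overlap over the 3 livers, except Cyp2c55 (7.94 to 13.9 CPM per kb) and Cyp2b10 (3.92 to 8.82 CPM per kb). Cyp2c70 alone made up 47.4% of the summed Cyp2c counts in untreated wild-type livers, 54.2% after DSS, 47.1% in untreated RelaΔhepStat3Δhep livers and 57.3% after DSS, over the 7 of 15 annotated Cyp2c genes that were analysed. The DSS-treated wild-type livers had shares of 37.9%, 87.2% and 49.2%, and without replicate 2 the share was 43.7%, below the untreated one. In DSS-treated wild-type replicate 2, Cyp2c54 (15.03 CPM per kb) stood below Cyp2c44 (26.0 CPM per kb), the reverse of their order in the untreated means. Across the 12 libraries Cyp2b10 ranged 177-fold from lowest to highest, Cyp2c55 56.2-fold, Cyp2c54 21.0-fold, Cyp2c44 6.77-fold, Cyp2c38 4.36-fold and Cyp2c70 1.94-fold.

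**Figure D2:**
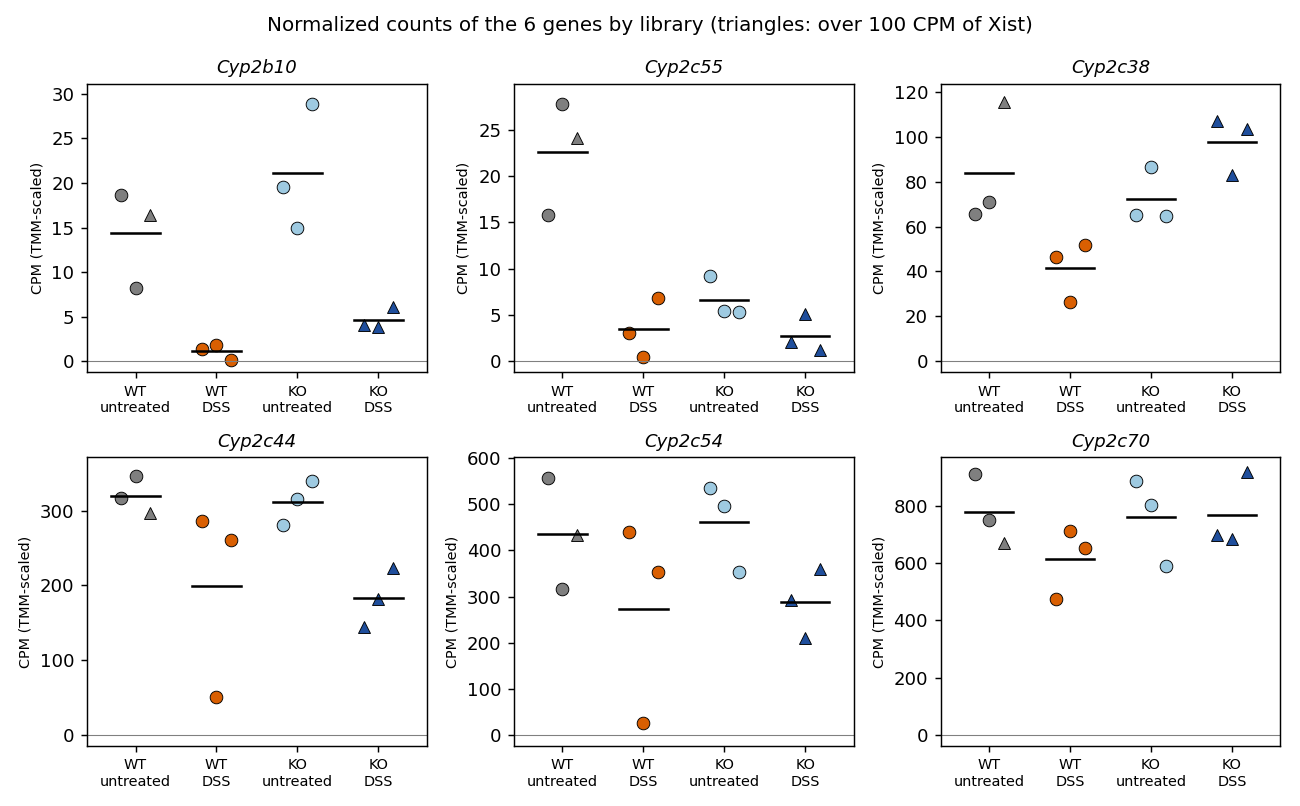
TMM-scaled CPM (linear axes from 0) of the 6 genes in each library of the 4 groups. WT is wild-type and KO is RelaΔhepStat3Δhep, each point is 1 liver, bars are group means, and triangles mark libraries with over 100 CPM of Xist. Cyp2b10 is low in both DSS groups, Cyp2c55 is high only in untreated wild-type livers, and Cyp2c44 and Cyp2c54 each have 1 DSS-treated wild-type liver far below the other 2.

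With DSS in wild-type mice the 6 fitted changes were negative, and Cyp2b10 was the gene that fell past the threshold. That is 1 of 6, where 0.685% of the 17652 genes tested passed an adjusted p of 0.05 and 0.232% did so as lower. An unadjusted p under 0.05 was reached by 3 of the 6 (Cyp2b10, Cyp2c38 and Cyp2c55), against 14.5% of genes. The wild-type groups did not overlap for 4 genes, lower after DSS, against 9.21% of genes tested. The median log2 fold change of the 6 was -0.85, against 0.02 over the genes tested. In the same comparison the 8 pericentral genes analysed had negative values (median -0.82). So did the 6 lymphocyte markers (median -1.22) and the 6 endothelial markers (median -0.34), while the 6 neutrophil markers had positive ones (median 2.735). Of these 4 lists 0 genes were called, and their part in the result was not tested. In RelaΔhepStat3Δhep mice, DSS moved 0 of 6 past the threshold, with 7.02% of genes passing. An unadjusted p under 0.05 was reached by 1 gene in this comparison with edgeR (24.1% of genes tested). DESeq2 called 1 of the 6, where it called 2315 of the 28151 genes with any count. In both cases the gene was Cyp2b10. There 3 genes did not overlap, lower after DSS, against 14.0% of genes tested, and the median was -0.73 against -0.01.

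Between genotypes the test called 0 of 6 genes, in untreated livers (0.0623% of genes tested passed) and after DSS (0.334% passed). With edgeR 1 gene in untreated livers and 2 after DSS had an unadjusted p under 0.05, as did 11.7% and 14.3% of genes tested. DESeq2 called 0 and 1 of the 6, where it called 334 and 584 of 28151 genes. Groups did not overlap for 1 gene in untreated livers, lower in RelaΔhepStat3Δhep mice (10.7% of genes tested), and for 2 after DSS, higher in RelaΔhepStat3Δhep mice (8.8%). The difference between genotypes in the DSS response passed for 0 of 6 with edgeR (0.408% of genes passed), while 1 had an unadjusted p under 0.05 (16.3% of genes did). DESeq2 called this difference for 1 of the 6, where it called 699 of 28151 genes. These comparisons share groups: each group enters 2 of the 4 pairwise comparisons and the difference between genotypes uses all 4.

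Cyp2b10 was at 18.6, 8.27 and 16.4 CPM in untreated wild-type livers (14.4 ± 5.45, SD, n = 3) and at 1.41, 1.85 and 0.163 CPM after DSS (1.14 ± 0.874, SD, n = 3). The groups did not overlap, and replicate 3 of the DSS group was the lowest of the 12 libraries, with 11 counts. Cyp2b10 fell 12.7-fold (log2 fold change -3.66, SE 0.65, 95% interval -5.11 to -2.21, edgeR adjusted p = 0.0375). With limma-voom the value was -4.53 (adjusted p = 0.0420). The edgeR call was lost with no filter on low counts, with only the compared groups, with a replicate block and with an Xist covariate. In fits that each left out 1 wild-type liver, the log2 fold change stayed between -4.18 and -3.15, but the adjusted p ran from 0.00744 to 0.106 and the call was lost without untreated replicate 1, 2 or 3 or DSS replicate 1. The acute-phase sum of DSS replicate 1 (13747 CPM) lay within the untreated wild-type range (10790 to 14954 CPM), and those of the other 2 DSS-treated livers lay above it. The part of the acute-phase genes in the fall of Cyp2b10 was not tested.

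In RelaΔhepStat3Δhep livers Cyp2b10 was at 19.6, 14.997 and 28.8 CPM untreated (21.1 ± 7.04, SD, n = 3) and at 4.02, 3.88 and 6.09 CPM after DSS (4.66 ± 1.24, SD, n = 3). Again no liver of one group reached the range of the other. The fitted value was -2.18 (SE 0.60, 95% interval -3.51 to -0.85, edgeR adjusted p = 0.0559), just short of the threshold, and DESeq2 gave -2.21 (adjusted p = 0.0147). After DSS the RelaΔhepStat3Δhep livers were each above the wild-type livers (log2 fold change 2.03, SE 0.63, edgeR adjusted p = 0.199), and the untreated genotypes overlapped (0.55, SE 0.57, adjusted p = 0.758). The DSS responses differed by 1.48 (95% interval -0.38 to 3.35, edgeR adjusted p = 0.404), so a difference between genotypes was not resolved. With limma-voom the genotypes differed by 3.00 after DSS and by 2.58 in response (limma-voom adjusted p = 0.251 and 0.217). An Xist covariate, whose effect comes from untreated wild-type replicate 3 alone, left the RelaΔhepStat3Δhep response at -2.46 (SE 1.06). In that fit the genotypes differed by 1.75 after DSS (SE 1.15).

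Cyp2c55, a linoleate and arachidonate hydroxylase found in liver and colon, was at 15.8, 27.8 and 24.1 CPM in untreated wild-type livers (22.6 ± 6.11, SD, n = 3) and at 3.10, 0.494 and 6.79 CPM after DSS (3.46 ± 3.16, SD, n = 3). The lowest untreated liver stood above the highest DSS-treated one. The log2 fold change of -2.70 (SE 0.79, 95% interval -4.46 to -0.94) did not pass with edgeR (adjusted p = 0.153) and passed with DESeq2 (-2.71, adjusted p = 0.0209). It was -3.64 without DSS replicate 3 and -2.20 without DSS replicate 2 (edgeR adjusted p = 0.0946 and 0.152). Untreated RelaΔhepStat3Δhep livers held 9.18, 5.42 and 5.32 CPM (6.64 ± 2.203, SD, n = 3), each below the 3 untreated wild-type livers. That difference was -1.76 on the log2 scale (SE 0.76, unadjusted p = 0.0429, edgeR adjusted p = 0.409), and with only these 2 groups in the fit its adjusted p was 0.0483.

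After DSS, Cyp2c55 in RelaΔhepStat3Δhep livers was at 2.03, 5.05 and 1.17 CPM (2.75 ± 2.04, SD, n = 3), below the untreated livers of that genotype without overlap and within the range of DSS-treated wild-type livers. The change with DSS was -1.27 (SE 0.76, edgeR adjusted p = 0.349), and it was -2.05 without DSS replicate 2 and -0.90 without DSS replicate 3. The 2 genotypes after DSS differed by -0.33 (SE 0.76, adjusted p = 0.891), and by -1.11 to 0.61 with 1 liver left out at a time. The interval of the difference in response, -0.94 to 3.81, held both no difference and a large one.

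Cyp2c38 was the gene whose DSS-treated livers each lay below the untreated mean in wild-type and each above the untreated mean in RelaΔhepStat3Δhep mice. Wild-type livers went from 65.7, 70.9 and 116 CPM (84.1 ± 27.5, SD, n = 3) to 46.6, 26.5 and 51.8 CPM (41.6 ± 13.4, SD, n = 3) without overlap. RelaΔhepStat3Δhep livers were at 65.3, 86.5 and 64.6 CPM untreated (72.1 ± 12.5, SD, n = 3) and at 107, 82.9 and 103 CPM after DSS (97.9 ± 13.1, SD, n = 3), with overlap. The fitted changes were -1.01 (SE 0.26, edgeR adjusted p = 0.0938) in wild-type and 0.44 (SE 0.26, adjusted p = 0.329) in RelaΔhepStat3Δhep mice.

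After DSS, Cyp2c38 was 2.35-fold higher in RelaΔhepStat3Δhep than in wild-type livers, without overlap (log2 fold change 1.23, SE 0.26, 95% interval 0.66 to 1.80, edgeR adjusted p = 0.0710). The difference in response was 1.45 (SE 0.37, 95% interval 0.66 to 2.25, edgeR adjusted p = 0.106), and DESeq2 gave adjusted p = 0.000995 and 0.0119 for the same values. The 4 libraries with over 100 CPM of Xist held 82.9 to 116 CPM of Cyp2c38 (median 105) and the other 8 held 26.5 to 86.5 CPM (median 64.9). With Xist as a covariate, the RelaΔhepStat3Δhep response was -0.32 (SE 0.40), of the opposite sign, and the 2 genotypes after DSS differed by 0.47 (SE 0.41, edgeR adjusted p = 0.885). The difference in response was then 0.39 (SE 0.55, adjusted p = 0.899). That fit takes the effect of Xist from untreated wild-type replicate 3 alone.

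Cyp2c44, an epoxygenase of arachidonic acid, stood at 316, 346 and 297 CPM in untreated wild-type livers (320 ± 24.6, SD, n = 3). After DSS it was at 286, 51.1 and 261 CPM (199 ± 129, SD, n = 3). The 3 treated livers were each below the untreated ones, but replicate 2, the liver with the highest acute-phase sum, was far below the other 2. The log2 fold change was -0.68 (SE 0.46, edgeR adjusted p = 0.540), and without replicate 2 it was -0.23 (SE 0.18, adjusted p = 0.666). Without DSS replicate 1 it was -1.04 (SE 0.50, edgeR adjusted p = 0.391).

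RelaΔhepStat3Δhep livers showed Cyp2c44 at 280.05, 315 and 340.1 CPM untreated (312 ± 30.2, SD, n = 3) and at 144, 182 and 223 CPM after DSS (183 ± 39.2, SD, n = 3). Here the groups did not overlap and no single liver set the difference: with 1 liver left out at a time, the log2 fold change ran from -0.93 to -0.64, around -0.77 (SE 0.46, edgeR adjusted p = 0.338). Fitted on these 2 groups alone, the adjusted p was 0.0279. With an Xist covariate in the fit over 12 libraries, the log2 fold change was -0.61 (SE 0.85). The wide SE of the fit over 12 libraries takes in the spread of the DSS-treated wild-type group. The genotypes differed by -0.04 untreated (SE 0.45, adjusted p = 0.987) and by -0.12 after DSS (SE 0.45, adjusted p = 0.935), or by -0.58 after DSS without wild-type replicate 2 (adjusted p = 0.206).

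Cyp2c54 showed the widest fold range among mice of one group, although Cyp2c55 had the larger SD relative to its mean in that group (91.4% against 79.7%). DSS-treated wild-type livers held 439, 26.6 and 354 CPM (273 ± 218, SD, n = 3), a 16.5-fold range, against 558, 317 and 433 CPM untreated (436 ± 120.1, SD, n = 3). Replicates 1 and 3 lay within the untreated range and replicate 2 lay far below it. The log2 fold change was -0.68 (SE 0.71, edgeR adjusted p = 0.736), and it was -0.14 without replicate 2 and -1.20 without replicate 1.

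In RelaΔhepStat3Δhep livers Cyp2c54 was at 535, 496 and 354 CPM untreated (462 ± 95.2, SD, n = 3) and at 293, 211 and 359 CPM after DSS (288 ± 74.1, SD, n = 3), with overlap (log2 fold change -0.68, SE 0.71, edgeR adjusted p = 0.612). The DSS responses of the 2 genotypes differed by -0.01, with an interval from -2.25 to 2.24 that leaves a large difference in either direction unresolved. Replicate 2 of the DSS-treated wild-type group was the lowest of the 12 libraries for Cyp2c38, Cyp2c44, Cyp2c54 and Cyp2c55, but not for Cyp2b10 or Cyp2c70. Its neutrophil marker sum was 91.7 CPM against 1.71 to 28.7 CPM in the other libraries, and the part of these markers in the result was not tested.

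Cyp2c70 varied least. It was at 911, 750.2 and 670.2 CPM in untreated wild-type livers (777 ± 123, SD, n = 3) and at 474, 713 and 651 CPM after DSS (612 ± 124, SD, n = 3), with overlap. Its log2 fold change of -0.34 (SE 0.22, 95% interval -0.82 to 0.13, edgeR adjusted p = 0.511) did not pass. RelaΔhepStat3Δhep livers were at 885, 801 and 590.3 CPM untreated (759 ± 152, SD, n = 3) and at 698, 684 and 918 CPM after DSS (767 ± 131, SD, n = 3). The 2 groups overlapped almost fully, and the interval of the change with DSS, -0.46 to 0.49, is the narrowest of the 6 genes in that comparison. Between genotypes the values were -0.03 untreated and 0.32 after DSS (SE 0.22 each, edgeR adjusted p = 0.968 and 0.540), and the sum of the 7 Cyp2c rows changed by -0.54 with DSS in wild-type (SE 0.22, adjusted p = 0.286) and by -0.27 in RelaΔhepStat3Δhep mice (SE 0.22, adjusted p = 0.498).

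**Figure D3:**
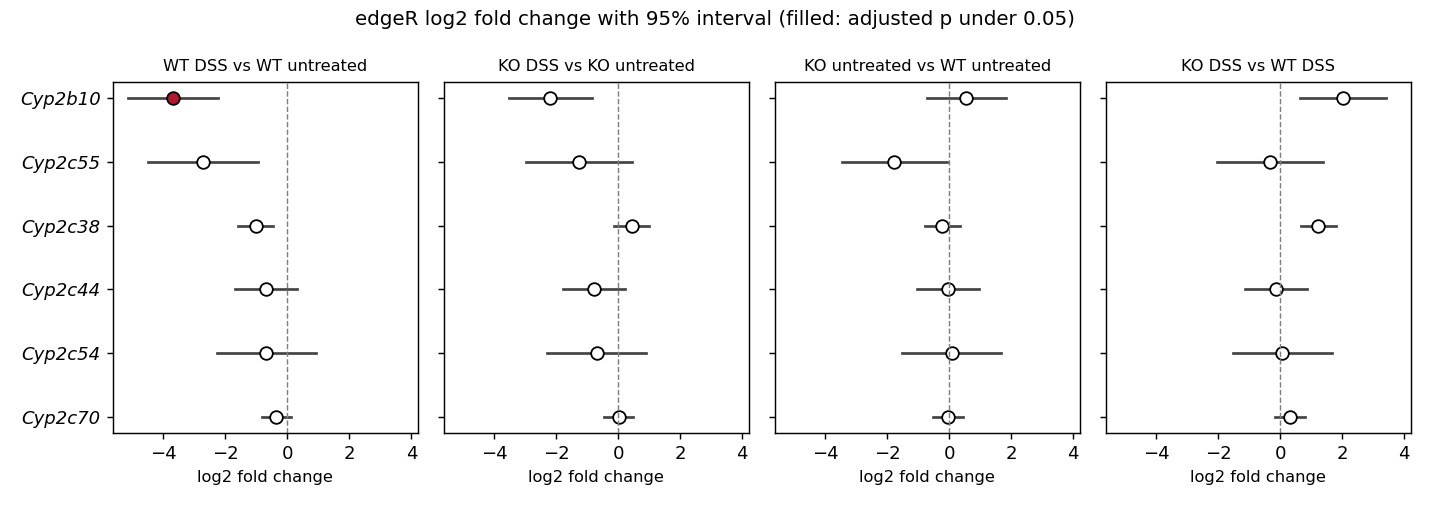
edgeR log2 fold change (point) and its 95% interval (line) for the 6 genes in 4 comparisons, first-named group minus second. The filled point has an adjusted p under 0.05. Cyp2b10 in wild-type mice after DSS (-3.66) is the filled point, and the intervals of Cyp2c54 are wide in each panel.

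**Figure D4:**
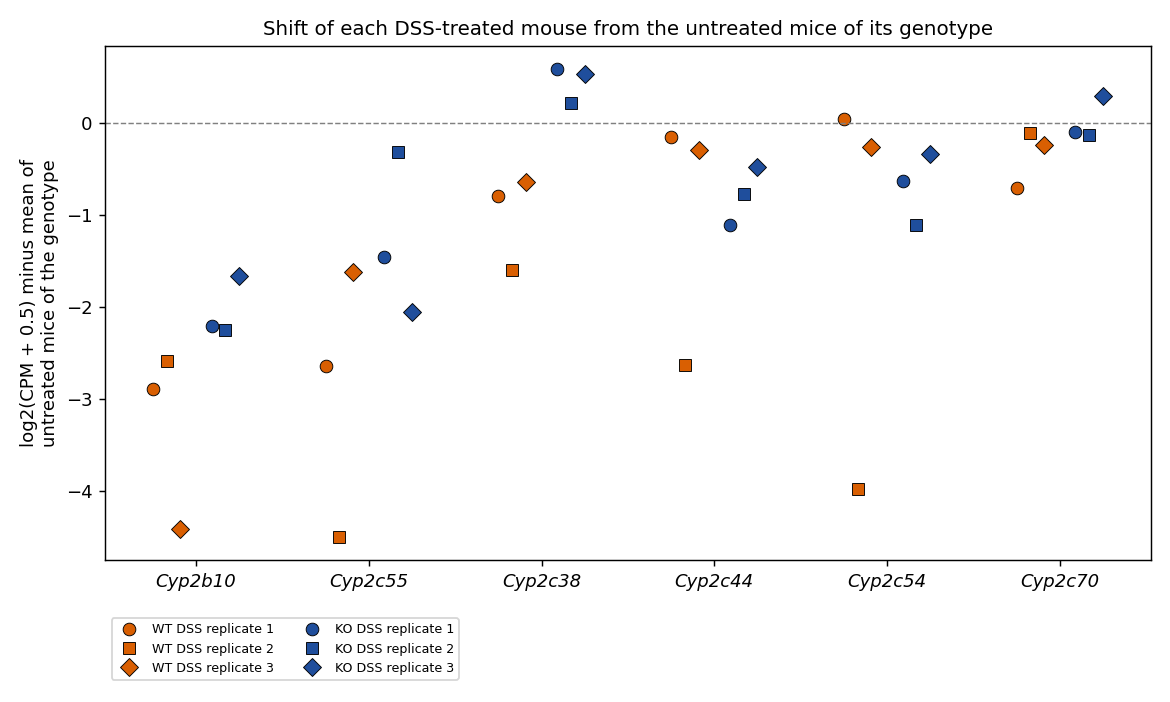
Difference in log2(CPM + 0.5) between each DSS-treated liver and the mean of the 3 untreated livers of its genotype, wild-type in orange and RelaΔhepStat3Δhep in blue, with marker shape for the replicate. The orange square, wild-type replicate 2, lies lowest for Cyp2c55, Cyp2c38, Cyp2c44 and Cyp2c54, and the blue points of Cyp2c38 lie above 0.

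The regulators and partners of these enzymes were read from lists of genes, fixed with earlier results known. The calls given for RelaΔhepStat3Δhep mice after DSS come from the fit without Xist: with the Xist covariate, which rests on 1 liver, the genes called in that comparison went from 1240 to 4 over the 17652 tested, the 4 being Y-linked, and 0 of the receptors, CAR and PXR targets, redox partners and cell type markers named here stayed called. Of 19 nuclear receptors and transcription factors, 0 passed with DSS in wild-type mice (median log2 fold change -0.18; 0.685% of genes tested passed) and 7 fell in RelaΔhepStat3Δhep mice (median -0.71; 2.46% of genes tested passed as lower and 4.57% as higher). Nr1i3, the receptor CAR, was at 127, 189 and 167 CPM in untreated RelaΔhepStat3Δhep livers and at 68.6, 89.7 and 85.6 CPM after DSS, without overlap (log2 fold change -0.99, SE 0.19, edgeR adjusted p = 0.0116). In wild-type livers it was at 114, 72.9 and 108 CPM untreated and at 74.3, 75.2 and 77.3 CPM after DSS, with overlap (-0.38, SE 0.19, adjusted p = 0.386). The treated levels of both genotypes lay between 68.6 and 89.7 CPM. The PAR bZIP factors Dbp, Tef and Hlf, clock-driven regulators of P450 genes, fell by 4.01, 2.86 and 1.61 on the log2 scale in RelaΔhepStat3Δhep mice (edgeR adjusted p = 0.0314, 0.00623 and 0.00174). Their wild-type values were -2.34, -0.77 and -0.51 (adjusted p = 0.207, 0.435 and 0.269), and Dbp did not overlap there either, with 29.4, 26.9 and 13.6 CPM untreated and 1.30, 10.4 and 2.10 CPM after DSS. Untreated RelaΔhepStat3Δhep livers held less Dbp than each untreated wild-type liver, at 2.05, 8.98 and 3.47 CPM. After DSS they held 0.185, 0.335 and 0.367 CPM, from 13, 28 and 26 counts. In RelaΔhepStat3Δhep mice DSS also lowered Ppara by 0.93, Nr1h4 by 0.71 and Hnf4a by 0.70 (adjusted p = 0.0145, 0.0400 and 0.0325). Between genotypes 1 of the 19 was called, untreated (0.0623% of genes tested passed) and after DSS (0.334%): the clock repressor Nr1d1, at 71.5, 108 and 97.6 CPM in untreated wild-type and 4.98, 8.61 and 7.45 CPM in untreated RelaΔhepStat3Δhep livers (log2 fold change -3.72, edgeR adjusted p = 0.000362), and with a value of -4.08 after DSS (adjusted p = 0.00016).

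Of 13 further genes known to respond to CAR or its relative PXR, 0 passed with DSS in wild-type mice (median -0.37, with 0.685% of genes tested passing) and 3 fell in RelaΔhepStat3Δhep mice (median -0.30, with 2.46% passing as lower). These were Alas1, which starts haem synthesis (log2 fold change -1.97, edgeR adjusted p = 0.00970), Por, the reductase that supplies P450 enzymes with electrons (-1.79, adjusted p = 0.0320), and Aldh1a1, a retinaldehyde dehydrogenase (-1.62, adjusted p = 0.0130). Por was also the 1 gene called among 5 redox partners and epoxide enzymes in RelaΔhepStat3Δhep mice (7.02% of genes tested passed), and 0 of the 5 were called in wild-type mice (0.685% passed). Ephx2, singled out after its values were seen, was at 495, 521 and 435 CPM in untreated and 398, 146 and 408 CPM in DSS-treated wild-type livers, with replicate 2 lowest as for Cyp2c44 (-0.61, edgeR adjusted p = 0.371). In RelaΔhepStat3Δhep livers it was at 691, 611 and 550.03 CPM untreated and at 299, 280.02 and 330 CPM after DSS, without overlap (-1.03, SE 0.30, edgeR adjusted p = 0.0557). Counts of calls in the 2 genotypes do not show that their responses differ: the difference in response passed for 0 genes of these 3 lists. In RelaΔhepStat3Δhep mice 5 of 6 Kupffer cell markers rose with DSS (Clec4f, Vsig4, Cd5l, Marco and C1qa; 4.57% of genes tested passed as higher), their sum going from 306 to 335 CPM to 614 to 976 CPM, and their part in the results was not tested. Of 7 genes biased to female liver Hao2 and Slc22a26 rose, of 7 biased to male liver Elovl3, C6 and Nat8 fell, and of 8 pericentral genes Cyp2e1 and Gulo fell (edgeR, same comparison), and their part was not tested either. The 6 neutrophil markers had positive values (median log2 fold change 4.64, Csf3r called), with sums of 1.71 to 2.49 CPM untreated and 10.9 to 28.7 CPM after DSS, as did 5 of 6 stellate cell markers (median 0.64, Des called), with sums of 355 to 417 CPM and 442 to 546 CPM.

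**Figure D5:**
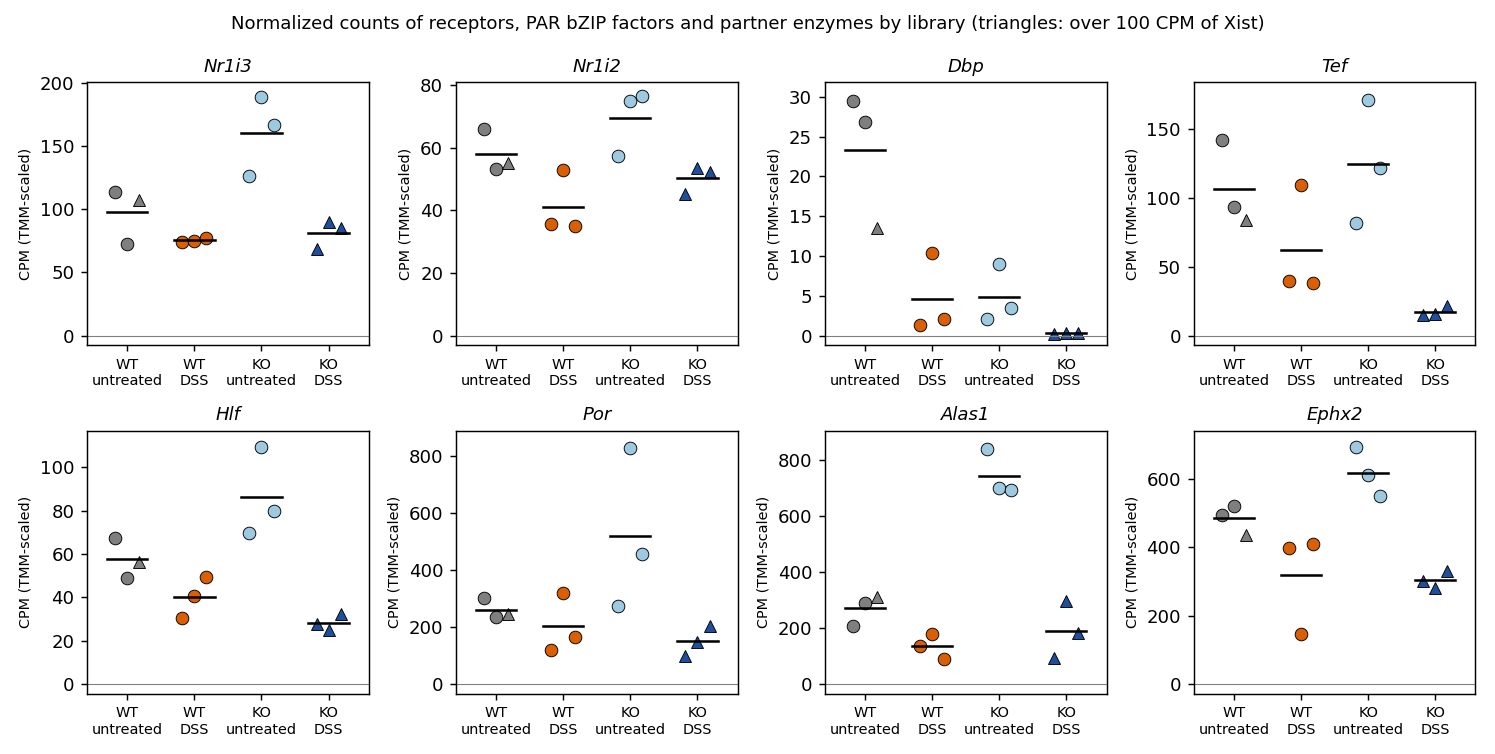
TMM-scaled CPM (linear axes) of the receptors Nr1i3 and Nr1i2 (PXR), the factors Dbp, Tef and Hlf, and the enzymes Por, Alas1 and Ephx2 in each library. Groups, bars and triangles are as in the plot of the 6 genes, and Nr1i2 and Ephx2 were added after their values were seen. In RelaΔhepStat3Δhep livers the DSS-treated points of each gene shown lie below the untreated ones without overlap, as for 14.0% of genes tested.

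Promoters, from 250 bases before to 50 after the start, were in the RefSeq table (GRCm38.p6) for 4 of the 6 genes: Cyp2b10, Cyp2c38, Cyp2c55 and Cyp2c70. They were searched on both strands for 5 short motifs. The 60 bases around each match are given on the strand of the gene, with the match in capitals, because they show which motifs the start regions hold.
Cyp2b10, chr7:25897574-25897633, plus strand: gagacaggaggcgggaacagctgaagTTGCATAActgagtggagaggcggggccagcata
Cyp2c38, chr19:39463126-39463185, minus strand: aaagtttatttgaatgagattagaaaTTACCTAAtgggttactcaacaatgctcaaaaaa
Cyp2c70, chr19:40187317-40187376, minus strand: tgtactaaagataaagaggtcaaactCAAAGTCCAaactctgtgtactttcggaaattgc
The C/EBP motif TTGCNNAA started 58 bases before the Cyp2b10 start, and 10.8% of the 32851 promoters hold it. A PAR bZIP motif, TTANGTAA, lay 84 bases before the Cyp2c38 start on the opposite strand (2.32% of promoters). The HNF4A motif CAAAGTCCA lay 64 bases before the Cyp2c70 start (0.475% of promoters). The STAT motif TTCNNNGAA (8.3%) and the NF-kB motif, GGG followed by NN and TTTCC, (1.63%) had no match in these 4 windows, and Cyp2c55 had no match to any of the 5. A match in letters describes the sequence and is not a measured binding site.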

How the data were processed

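The authors trimmed rRNA-depleted liver RNA-seq reads with fastp, aligned them to mm9 with HISAT2 and made a gene table with StringTie. The deposited values are estimated counts, given as whole numbers, which StringTie derives from coverage, so totals are not numbers of reads. How reads shared by paralogs were assigned is not given in the sources used here. Names and locations came from GENCODE vM1, which names 28677 of 51609 rows. The members and gene lists were chosen with earlier results of these data known.

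Tests ran in edgeR 4.0.16 under R 4.3.3: filterByExpr (17652 genes kept), TMM (factors 0.758 to 1.13), and robust quasi-likelihood F tests in 1 model of 4 groups of 3 mice, with Benjamini-Hochberg adjustment over the genes tested and a threshold of 0.05. The script was tested on simulated data. Intervals are 95% intervals from the SE and the degrees of freedom of each gene. The p-values of this fit set a difference against the spread between mice within groups. That spread was estimated over the 4 groups together and moderated across genes. Exact permutation tests on log2(CPM + 0.5) have a smallest two-sided p of 0.1 and served only to show overlap. DESeq2 1.42.0, limma 3.58.1 (voom with sample weights), other filters and scaling, fits of the compared groups only, a replicate block, an Xist covariate (limit 100 CPM), and leaving out each mouse were tried. The 28151 genes given for DESeq2 are those with any count, including any that its own filtering left without an adjusted p.

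Named in the text were the 6 genes, their family, called genes of the lists described (for receptors and factors, CAR and PXR targets, redox partners, Kupffer cells, neutrophils, stellate cells, liver sex bias and pericentral hepatocytes), sex-linked and acute-phase genes, and for each of the 6 the 3 protein-coding genes nearest in pattern. Nr1i2 and Ephx2 were added after their values were seen. Windows of 50 and 150 bases came from the annotated transcripts of the same release.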

Additional observations from a re-analysis of the deposited data

Results flagged for a closer look

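Cyp2c38 differed between the genotypes in its DSS response by 1.45 on the log2 scale (SE 0.37). It was singled out because each of the 3 DSS-treated wild-type livers was below, and each of the 3 DSS-treated RelaΔhepStat3Δhep livers above, the untreated mean of its genotype. The difference itself did not pass with edgeR (adjusted p = 0.106) and passed with DESeq2 (1.44, adjusted p = 0.0119). The 3 RelaΔhepStat3Δhep livers also held 903 to 1283 CPM of Xist, which cannot be told apart from their group. With Xist as a covariate the difference was 0.39 (SE 0.55, edgeR adjusted p = 0.899).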

How the results depend on the processing

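Cyp2b10 in wild-type mice after DSS kept its sign under each alternative, but its call depended on the setting. The count of called genes there was 1 of 6 in the main fit, with 121 of 17652 genes called. It became 0 with no filter on low counts, with only the compared groups in the fit and with an Xist covariate (Cyp2b10 edgeR adjusted p = 0.0834, 0.205 and 0.1002). Genes called in these fits were 130 of 28151, 21 of 16237 and 50 of 17652. With DESeq2 the count was 3 (Cyp2b10, Cyp2c38 and Cyp2c55), with 840 of 28151 genes called. With 1 mouse left out the count ran from 0 to 1, with 35 of 18303 to 209 of 18279 genes called. In RelaΔhepStat3Δhep mice after DSS the count of 0 became 1 with at least 10 counts in every library, with DESeq2 or with limma-voom, and 2 with only the compared groups (Cyp2b10 and Cyp2c44). In the order named, these fits called 1412 of 13541, 2315 of 28151, 1797 of 17652 and 1698 of 16585 genes. Untreated, the genotypes gave 1 with only the compared groups (Cyp2c55), with 60 of 16471 genes called. DESeq2 gave 1 (Cyp2c38) between genotypes after DSS and 1 for the difference in response, with 584 and 699 of 28151 genes called.

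The labels do not say that replicate numbers pair the mice. Correlations of same-numbered deviations ran from -0.07 to 0.20. Differently numbered mice were not set beside them, so these values cannot decide on pairing. With a replicate block the count in wild-type mice became 0, with 119 of 17652 genes called (Cyp2b10 -3.60, edgeR adjusted p = 0.0850). With that block the differences in response of Cyp2c44 and Cyp2c54 became 0.019 and 0.14.

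Of 455 values of single genes under alternatives, 400 kept sign and call and 37 changed sign, most of them near 0. In RelaΔhepStat3Δhep mice after DSS, Cyp2c70 became -0.0069 with DESeq2 size factors, -0.0083 with at least 10 counts in every library, -0.0022 with only the compared groups and -0.0055 with DESeq2, and ran from -0.14 to 0.14 with 1 mouse left out. Cyp2c38 there became -0.32 with the Xist covariate, and 0.078 between untreated genotypes. With that covariate Cyp2c44 became 0.033 between genotypes after DSS and 0.12 for the difference in response, and Cyp2c54 0.012 for the latter. With limma-voom the difference in response of Cyp2c54 became 0.14. With 1 mouse left out, untreated genotypes ran from -0.37 to 0.078 (Cyp2c38), -0.10 to 0.034 (Cyp2c44), -0.10 to 0.30 (Cyp2c54) and -0.16 to 0.12 (Cyp2c70). Genotypes after DSS ran from -0.58 to 0.23 (Cyp2c44), -0.46 to 0.60 (Cyp2c54) and -1.11 to 0.61 (Cyp2c55). Differences in response ran from -0.56 to 0.27 (Cyp2c44) and -0.56 to 0.52 (Cyp2c54). The exact comparison of Cyp2c55 between genotypes after DSS became 0.030 with a pseudocount of 0.1. The cause was not tested. Sums of close paralogs could be made only for Cyp2b10, with Cyp2b19 and Cyp2b23 at 0 counts, and left it at -3.66.

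With 3 mice per group and a biological coefficient of variation of 0.317, intervals of Cyp2c54 and Cyp2c55 stayed wide, and 11 counts stood behind the lowest Cyp2b10 value.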

Other observations

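For each of the 6 genes the 3 protein-coding genes nearest in pattern were found by the root mean square (RMS) difference of centred log2(CPM + 0.5) over the 12 libraries, among 10441 genes. The measure describes these libraries only, and genes share library, depth and group.

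Nearest to Cyp2b10, whose own RMS deviation from its mean was 1.58, were Thrsp (0.94), Agxt2l1 (0.97) and G0s2 (0.97), so that no gene followed it closely. Thrsp and G0s2 are genes of fat synthesis and of lipolysis control. For Cyp2c55 (own deviation 1.41) the nearest were Vldlr (0.71), Tnfrsf19 (0.82) and Car1 (0.85).

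Cyp2c44 (own deviation 0.75) had closer neighbours: the P450 gene Cyp2f2 (0.26), the soluble epoxide hydrolase gene Ephx2 (0.32) and the acyl-CoA synthetase gene Acsl1 (0.36). Cyp2c54 (1.12) was nearest to 2810007J24Rik (0.39) and to the carboxylesterase genes Ces1g (0.43) and Ces1f (0.45). Cyp2c38 (0.56) was nearest to Fmo1 (0.29), Hsdl2 (0.30) and Spp2 (0.30). Cyp2c70 (0.26), which varied little, was nearest to Rpl23a-ps3 (0.13), Tmem93 (0.14) and Bzw2 (0.15).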
